A study of Laetiporus sulphureus with 6 samples.

Results

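The AA2 and other peroxidases of *L. sulphureus* ATCC 52600 considered here were 4 of the 10015 genes measured, namely g4415 and g11846, the AA2 genes of the study's annotation, and g7552 and g7863, annotated as peroxidases without a CAZy domain. g7552 and g7863 were chosen by a measured value, since the study had called both lower on bagasse in these same libraries. The AA2 pair was taken by its family. For this reason the difference between conditions is given for the 4 genes as a description, with its standard error and without a p-value. Where a gene is said to have met or missed the rule for a call, this is part of the description and not evidence for a change. The other 9 genes annotated as peroxidases serve as background. With them, 13 peroxidase genes were listed, and all 13 were in the deposited tables. Both conditions used mycelium of this strain grown for 7 days in 100 mL of liquid medium from 15 agar discs, at 30 °C and 180 rpm. In BIN (3 cultures) the mycelium was washed and kept for 24 h in 100 mL of mineral medium of pH 7 with 1 g of in natura (untreated) sugarcane bagasse. T0 (3 cultures) was the pre-inoculum mycelium before the transfer. The transfer to the mineral medium and the contact with bagasse cannot be told apart, because a culture transferred without bagasse was not analysed here.

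Peroxidases are enzymes, most of them with a haem group, that use hydrogen peroxide to oxidize another molecule. The peroxidase domain PF00141 defines AA2 and holds both class I enzymes, which work inside the cell and include cytochrome c peroxidase, and class II enzymes, which are secreted and include the lignin, manganese and versatile peroxidases of white-rot fungi. Brown-rot fungi largely lack class II enzymes and attack wood with hydroxyl radicals from the Fenton reaction of iron with hydrogen peroxide. The study's annotation placed g11846 in class II, with a predicted signal peptide, and the other AA2 gene, g4415, in class I. The domain PF01328, found in g7552, is that of the haem-thiolate peroxidases, which include fungal chloroperoxidases and peroxygenases. The domain PF03098, found in g7863, is the animal-type haem peroxidase domain, which in *Aspergillus* belongs to fatty acid oxygenases that make signalling oxylipins. A signal peptide was also predicted for g7863. These names rest on domain searches, and the activity of the 4 proteins was not measured.

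The libraries held 9541028 to 15331728 counts. Levels are given as TPM (transcript abundance corrected for gene length and brought to the same total in each library) where genes are compared with each other, and as TMM-normalized CPM (counts brought to a common library size with edgeR's scaling factors) where conditions are compared. A call required a Benjamini-Hochberg adjusted p no greater than 0.05 in edgeR's quasi-likelihood test and a log2 fold change of 1 or more in size. It was met by 2591 genes, 1134 of them higher and 1457 lower in BIN. On this scale the median of all genes was at a log2 fold change of 0.00. With library size alone it was 0.13. With log2-transformed TPM it was 0.40 (pseudocount 1) and 0.43 (pseudocount 0.1). Accordingly, the share of called genes that were higher was 43.8% with TMM, 54.8% with library size alone, and 74.5% and 75.8% in log2-transformed TPM with these pseudocounts. RNA came from whole mycelium, which in BIN was collected together with the bagasse. Fewer hyphae of one kind and less RNA per hypha cannot be told apart in such material.

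The order of abundance was the same in both conditions. The class I gene g4415 had the most transcript per length, followed by g7552, g7863 and the class II gene g11846. In BIN the levels were 406 ± 9.42 TPM for g4415, 116 ± 7.17 for g7552, 68.0 ± 5.97 for g7863 and 37.1 ± 1.41 for g11846 (SD, n = 3). In T0 they were 485 ± 35.99, 240.1 ± 55.1, 153 ± 17.2 and 30.6 ± 3.46 TPM (SD, n = 3), in the same order of genes. No neighbours in this order overlapped between libraries of 1 condition. Against all 10015 genes, g4415 stood at percentile 96.2 in BIN and 96.6 in T0, and g11846 near the middle, at percentile 55.2 in BIN and 58.6 in T0. g7552 stood at percentile 84.7 in BIN and 93.5 in T0. g7863 stood at percentile 73.4 in BIN and 89.9 in T0.

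**Figure D1:**
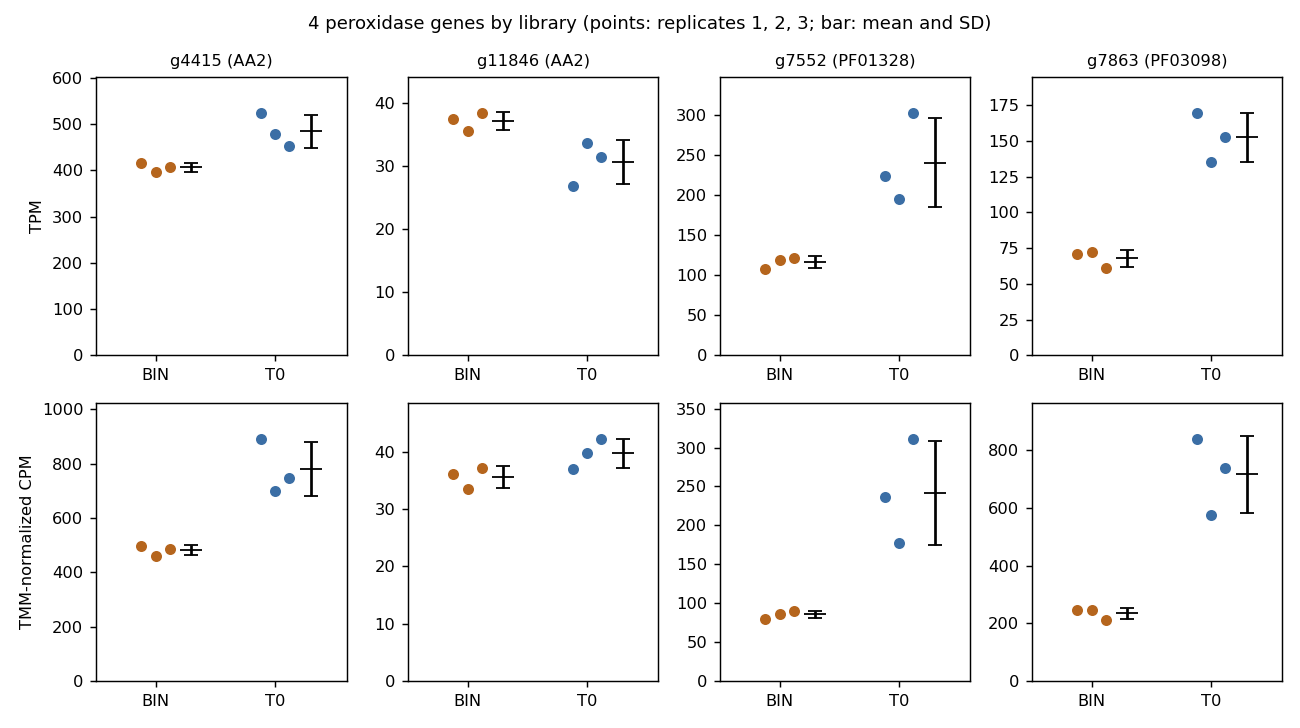
Level of g4415, g11846, g7552 and g7863 in each library, as TPM (upper row) and TMM-normalized CPM (lower row), with BIN left and T0 right. Points are replicates 1, 2 and 3 and the bar gives the mean and SD. BIN lies below T0 on both scales for g4415, g7552 and g7863, whereas g11846 is higher in BIN in TPM and overlaps in CPM.

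The AA2 gene g4415 was measured at 496, 461 and 487 TMM-normalized CPM in BIN replicates 1, 2 and 3, and at 891, 699 and 749 in T0 replicates 1, 2 and 3. The 3 BIN libraries lay close together, at a coefficient of variation of 3.72%, and all of them lay below the lowest T0 library, replicate 2. The log2 fold change was -0.70 (standard error, SE, 0.12), which leaves BIN at 0.617 times the T0 level and short of the threshold of 1. In TPM the gap was smaller, with 415, 397 and 407 TPM in BIN and 523.2, 478 and 452 TPM in T0, and the libraries still did not overlap. On log2(TPM + 1) values the difference was -0.25 (SE 0.10), or -0.65 relative to the median of all genes on that scale.

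The AA2 gene g11846, the only listed gene annotated as a class II peroxidase, was present at a moderate level with little spread between replicates. It had 36.2, 33.5 and 37.1 TMM-normalized CPM in BIN and 37.0, 39.8 and 42.2 in T0, and the highest BIN library lay just above the lowest T0 library. The log2 fold change was -0.16 (SE 0.09). Its sign depended on the scale, since the TPM were 37.4, 35.5 and 38.3 in BIN and 26.8, 33.6 and 31.4 in T0, and the difference on log2(TPM + 1) values was 0.27 (SE 0.11). Relative to the median of all genes the value was -0.15 with TMM and -0.13 on log2(TPM + 1) values. The gene had 425 to 513 counts in BIN and 325 to 609 in T0. Its coefficient of variation between replicates, 5.30% in BIN and 6.53% in T0, was close to the 4.68% and 4.60% that counting error alone gives at this depth. As the sign differed between scales, no direction between BIN and T0 is given for g11846.

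The ratio of both AA2 genes within a library does not depend on how libraries are scaled. The TPM of g4415 were 11.1, 11.2 and 10.6 times those of g11846 in BIN, and 19.5, 14.2 and 14.4 times in T0. Each BIN ratio was below each T0 ratio, and T0 replicate 1 stood apart with the highest. g4415 made up 91.6% ± 0.213 of the AA2 TPM in BIN and 94.0% ± 0.954 in T0 (SD, n = 3).

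The haem-thiolate peroxidase gene g7552 was measured at 80.0, 86.2 and 90.1 TMM-normalized CPM in BIN and at 237, 177 and 311 in T0. T0 replicate 3 was the highest and replicate 2 the lowest, and both were far above the 3 BIN libraries. The log2 fold change was -1.50 (SE 0.19), so that T0 had 2.83 times the BIN level. Without T0 replicate 3 it was -1.28, and without T0 replicate 2 it was -1.69. The replicates of T0 varied by 27.7% (coefficient of variation) and those of BIN by 5.94%, against medians over all genes of 10.3% in T0 and 6.73% in BIN.

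The animal-type haem peroxidase gene g7863 was measured at 245, 244 and 213 TMM-normalized CPM in BIN and at 839, 574 and 738 in T0. T0 replicate 2 was again the lowest of its group and was well above the highest BIN library. The log2 fold change was -1.61 (SE 0.15), so that T0 had 3.06 times the BIN level. Its coefficient of variation was 7.85% in BIN and 18.6% in T0. In TMM-normalized CPM, T0 replicate 2 thus had the least of g4415, g7552 and g7863 in its group. In TPM, T0 replicate 3 had the least of g4415. Without T0 replicate 2 the log2 fold changes were larger in size, at -0.78, -1.69 and -1.76 for g4415, g7552 and g7863.

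The coding lengths behind the TPM differed widely among the 4 genes. The ratio of counts to TPM gave lengths that were whole multiples of a common step in all 10015 genes (tolerance 0.001 of a step), of which 9942 were multiples of 3, so that the step was read as 1 base of coding sequence. On this reading g7863 had 3603 bases, g4415 1239, g11846 1005 and g7552 771, against a median of 1107 over all genes. As an alternative, a smooth trend of fold change on gene length was removed over all genes. g7863, the longest of the 4, then had a log2 fold change of -2.18, g7552, the shortest, one of -1.27, and g4415 was left at -0.70.

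In all, 2 of the 4 genes were called, both lower in BIN, while 25.9% of all genes tested were called, 14.5% lower and 11.3% higher. As g7552 and g7863 were picked for that call, nothing is read from the count. In 3 of the 4 genes every BIN library lay below every T0 library in TMM-normalized CPM, and 38.0% of all genes tested did so, while in 37.6% every BIN library lay above. Of the 13 listed peroxidases, g7552 lay nearest inside the threshold, and g11246, at 0.78, and g4415, at -0.70, lay nearest outside it.

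**Figure D2:**
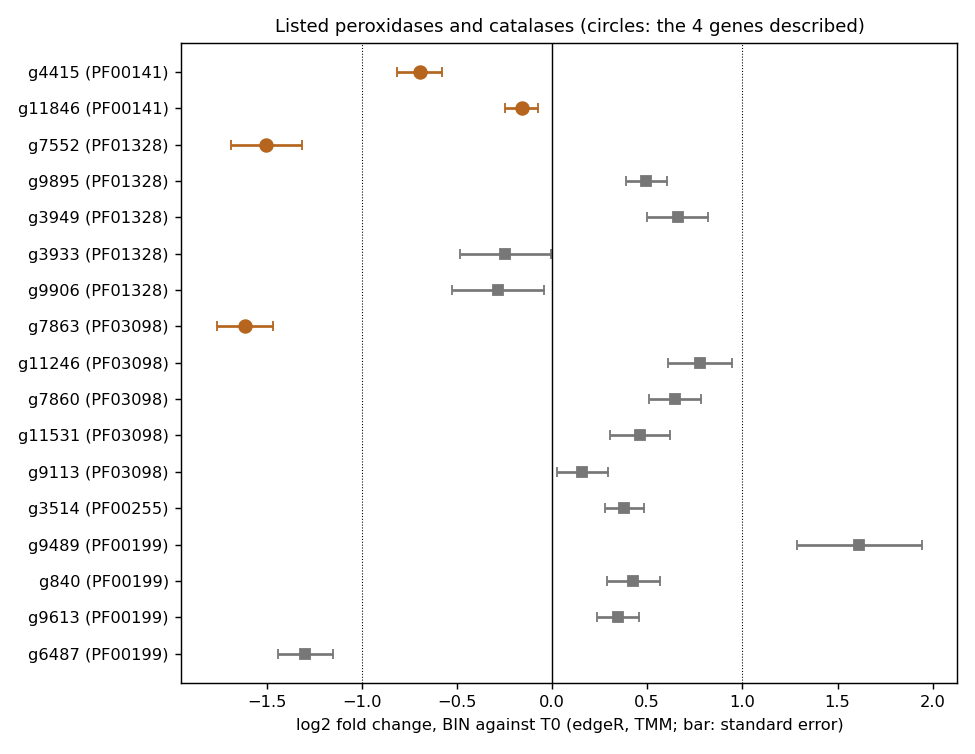
Log2 fold change of BIN against T0 (edgeR, TMM) of the 13 listed peroxidases and 4 catalases, grouped by Pfam domain, with standard errors. Circles are the 4 genes described, squares the background genes, and dotted lines mark the threshold of 1. The squares with PF01328 and PF03098 run from -0.28 to 0.78, and g7552 and g7863, with the same domains, lie at -1.50 and -1.61. As g7552 and g7863 were chosen because the study called them lower in these libraries, nothing is read from this gap. The signs of g11846, g9906 and g3933 reverse in log2-transformed TPM, where the median of all genes is also raised. That of g9113 reverses after correction for gene length.

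None of the other 9 peroxidases was called with edgeR, with DESeq2 or with unadjusted p-values, beside 25.9% of all genes called with edgeR. As g7552 and g7863 had been set apart because the study called them, nothing is read from this. Of the 9 genes, 6 had an edgeR adjusted p of at most 0.05 with a fold change short of the threshold, all of these higher in BIN. At any fold change, 7121 of all 10015 genes had an edgeR adjusted p of at most 0.05, so nothing is read from the 6. The median log2 fold change of the 9 was 0.46 with a range of -0.28 to 0.78, beside 0.00 for all genes. For all 13 listed peroxidases it was 0.16. As the 9 remained after g7552 and g7863 were set apart, nothing is read from the higher median of the 9. In log2-transformed TPM 2 of them were called higher with a pseudocount of 1 (g3949 and g11246) and 3 with one of 0.1 (g7860 as well), beside the raised median of all genes on those scales. The most abundant was g3514, which carries the glutathione peroxidase domain PF00255 and had 771 ± 50.4 TPM in BIN and 441 ± 78.6 in T0 (SD, n = 3). In TMM-normalized CPM its log2 fold change was 0.38 (SE 0.10, adjusted p = 0.00848 with edgeR).

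The domain PF01328 is shared by g7552 and 4 background genes. The largest of these, g9895, had 808, 780 and 786 TMM-normalized CPM in BIN and 606, 505 and 573 in T0. Its libraries did not overlap, and the log2 fold change was 0.50 (SE 0.11, adjusted p = 0.00235 with edgeR), with the opposite sign to that of g7552. In TPM, g9895 exceeded g7552 by 5.90, 5.29 and 5.10 times in BIN and by 1.49, 1.66 and 1.08 times in T0, a ratio that library scaling cannot change. g7552 made up 12.4% ± 1.04 of the TPM of the 5 genes in BIN and 32.6% ± 5.56 in T0 (SD, n = 3). As g7552 was chosen because the study called it lower, the shifts in this ratio and share follow in part from that choice. Of the remaining genes, the log2 fold change was 0.66 (SE 0.16) for g3949, -0.28 (SE 0.24) for g9906 and -0.25 (SE 0.24) for g3933. Both g9906 and g3933 took a positive sign once log2-transformed TPM were compared, with either pseudocount. Both stayed below the median of all genes, which was 0.40 (pseudocount 1) and 0.43 (pseudocount 0.1). g3949 and g3933 had the same coding length of 897 bases. As the counting program is not given in the sources used here, reads could have been split between them if they are near-identical copies, which was not tested.

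The domain PF03098 is shared by g7863 and 4 background genes, all of which had positive log2 fold changes with TMM. They were 0.78 for g11246 (SE 0.17), 0.65 for g7860 (SE 0.14), 0.46 for g11531 (SE 0.16) and 0.16 for g9113 (SE 0.14). After correction for gene length they were 0.35, 0.17, 0.55 and -0.34, in the same order of genes. These genes were far less abundant than g7863, at 4.27 to 11.6 TPM in BIN and 2.03 to 5.85 TPM in T0 on average. The gene g7860, whose number lies close to that of g7863, had 12.3, 10.6 and 13.8 TMM-normalized CPM in BIN and 8.09, 7.97 and 7.48 in T0. The TPM of g7863 were 16.5, 19.2 and 12.8 times those of g7860 in BIN and 86.3, 60.0 and 82.1 times in T0, with no overlap. g7863 made up 67.3% ± 3.03 of the TPM of the 5 genes in BIN and 89.6% ± 2.94 in T0 (SD, n = 3). As g7863 was chosen in the same way as g7552, the shifts in its ratio and share also follow in part from that choice. A further gene with this domain, listed only as redox, was g7754, at 0.40 (SE 0.14). Another, g511, was not among the genes tested.

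**Figure D3:**
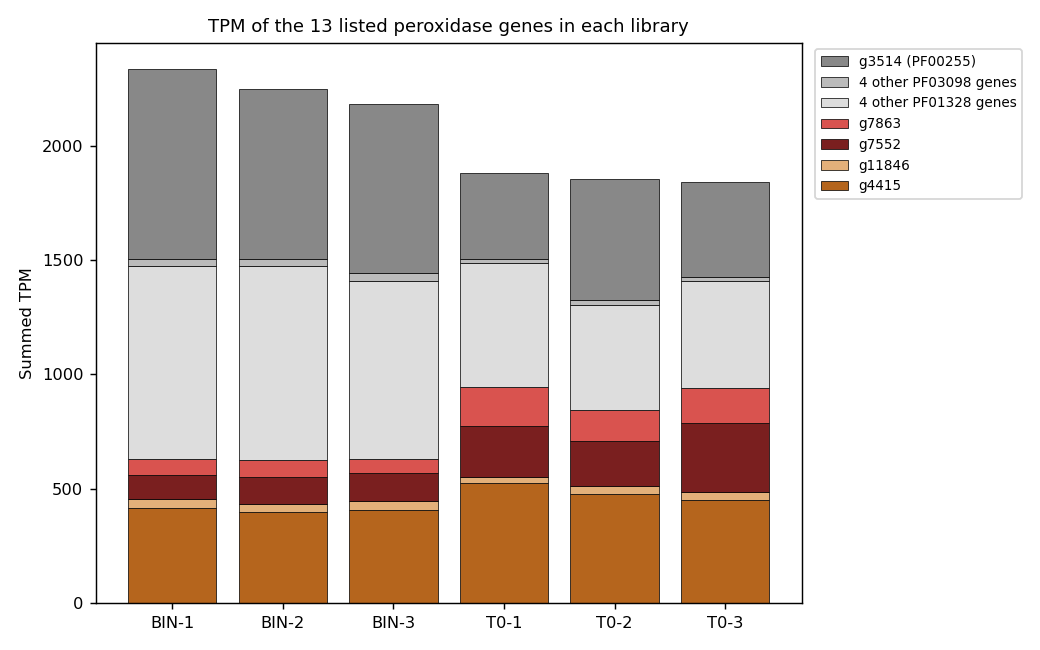
Summed TPM of the 13 listed peroxidase genes in each library, BIN left and T0 right, with 1 segment for each of the 4 genes described, for g3514 and for the other genes of PF01328 and PF03098. The 4 genes fill 27.0 to 28.8% of each BIN bar and 45.4 to 51.0% of each T0 bar.

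Summed over all 13 genes, peroxidase transcripts amounted to 2255 ± 76.1 TPM in BIN and 1859 ± 20.8 TPM in T0 (SD, n = 3). No direction is given for this sum, because it depends on the scale and the median of all genes was itself raised by 0.40 in log2(TPM + 1) values. The 4 genes contributed 631, 624 and 627 TPM in BIN and 943, 842 and 938 TPM in T0. Their share was 27.0, 27.7 and 28.8% in BIN and 50.1, 45.4 and 51.0% in T0, a shift to which the choice of g7552 and g7863 contributes. g4415 was taken by its family, though with earlier results of these data known. g4415 alone made up 18.0% ± 0.539 in BIN and 26.1% ± 1.64 in T0 (SD, n = 3).

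Catalases, which break hydrogen peroxide down to water and oxygen, were set beside the peroxidases as the other listed enzymes that use it. Of the 4 catalase genes, g9489 was called higher and g6487 lower in BIN. g9489 had 1156, 1222 and 1852 TMM-normalized CPM in BIN and 360, 696 and 325 in T0, so that BIN replicate 3 and T0 replicate 2 stood high in their groups. Its log2 fold change was 1.62 (SE 0.33, adjusted p = 0.0031 with edgeR), and the call was lost with glmTreat, edgeR's test against the fold threshold itself. g6487 had 71.0 ± 9.89 TMM-normalized CPM in BIN and 175 ± 31.0 in T0 (SD, n = 3). Its log2 fold change was -1.30 (SE 0.14, adjusted p = 5.77e-05 with edgeR). The call was lost with glmTreat and in log2-transformed TPM, where the difference was -0.84 (pseudocount 1) and -0.85 (pseudocount 0.1). The other 2, g840 and g9613, had log2 fold changes of 0.43 and 0.35, and of 0.0749 and 0.0209 after correction for gene length. Catalase transcripts summed to 918 ± 222 TPM in BIN and 308.6 ± 105 TPM in T0 (SD, n = 3).

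Thioredoxins and glutaredoxins are small proteins that pass electrons to disulfides and, in other fungi, to enzymes that remove peroxides. Of the 9 listed genes with the domains PF00085 or PF00462, 8 were tested, and 5 were called lower and 1 higher in BIN, beside 14.5% and 11.3% of all genes. Their median log2 fold change was -1.11. The lower genes were g2775, at -2.69 (SE 0.11), g7022, at -1.66 (SE 0.19), g2639, at -1.46 (SE 0.09), g4383, at -1.22 (SE 0.08), and g4975, at -1.0 (SE 0.11), and the higher gene was g533, at 1.25 (SE 0.11). The call of g4975 was held in 4 of 16 alternatives, and that of g4383 was lost on both TPM scales and after correction for gene length.

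Among the 688 other tested genes of the study's annotation list, those with the profile most like each of the 4 genes were found by the root mean square difference of gene-centred log2 CPM over the 6 libraries, a distance in which library scaling cancels. For g7863 these were the thioredoxin-domain gene g7022 (0.0804), the cytochrome P450 gene g11099 (0.105) and the redox gene g6397 (0.114). For g7552 they were the redox gene g1105 (0.115), the alcohol dehydrogenase g3367 (0.167) and the GH18 gene g5150 (0.193). For g4415 they were the redox gene g9049 (0.0559), the P450 gene g5466 (0.0870) and the AA3_2 gene g9052 (0.0876). For g11846 they were the redox gene g9997 (0.0457), the thioredoxin-domain gene g4715 (0.0460) and the alcohol dehydrogenase g9792 (0.0520). The choice was not firm. With each of the 6 libraries left out in turn, the nearest gene was the same in 5 of 6 cases for g4415 and g7552, 4 for g7863 and 2 for g11846. Of the 3 genes named, 1 to 2 were found again for g4415 and g7552, 1 to 3 for g7863 and 0 to 3 for g11846, the 0 without T0 replicate 1.

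**Figure D4:**
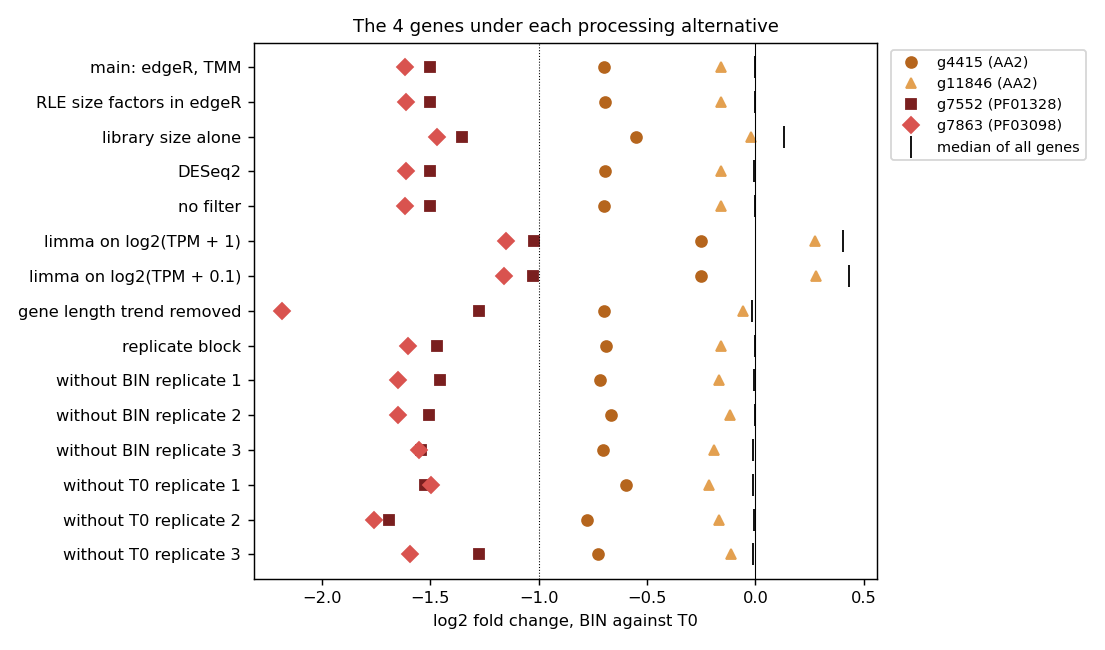
Log2 fold change of BIN against T0 for g4415, g11846, g7552 and g7863 under the main processing and each alternative other than unadjusted p and glmTreat. The median of all genes is a vertical tick. g7552 and g7863 stay at or below -1.02 throughout, g4415 runs from -0.78 to -0.25, and g11846 crosses 0 on both TPM scales, where the median of all genes is also raised.

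g7552 and g7863 kept log2 fold changes past the threshold in each of 14 alternatives, with ranges of -1.69 to -1.02 and -2.18 to -1.15. Unadjusted p and glmTreat were left out. As the study called both genes lower in these same libraries, nothing is read from this persistence. g4415 ranged from -0.78 to -0.25, short of the threshold in each of the 14. Relative to the median of all genes in the same setting, g4415 on log2(TPM + 0.1) values was at -0.68, g7552 at -1.46 and g7863 at -1.59, close to -0.69, -1.50 and -1.61 with TMM.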

How the data were processed

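RNA (mirVana kit, Illumina TruSeq mRNA libraries, HiSeq) was analysed from 3 BIN and 3 T0 cultures, mapped to columns by their labels. The BIN material was collected as a mixture of mycelium and bagasse, and the T0 material was mycelium of the pre-inoculum. The authors filtered reads with Trimmomatic 0.32, removed rRNA with SortMeRNA and aligned the rest by TopHat2 to an assembly of this strain. They deposited counts per predicted gene without normalization. The counting program is not given in the sources used here. They also deposited TPM, which were the same counts divided by 1 length per gene. Every gene in the tables had at least 1 CPM in each library (lowest count 10), so all 4 genes passed this filter and edgeR's filterByExpr removed none.

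BIN was compared with T0 over 10015 genes with edgeR 4.0.16 under R 4.3.3 (TMM, robust glmQLFit, glmQLFTest, no replicate block) with Benjamini-Hochberg adjustment. The study used DESeq2 with the same fold threshold. The standard error is the log2 fold change divided by the square root of F. P-values set the difference between the conditions against the spread between these cultures within a condition. With 3 against 3 libraries no permutation p can go below 0.1, so none is given.

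The alternatives tried were RLE factors, library size alone, DESeq2 1.42.0, no filter, limma 3.58.1 on log2(TPM + 1) and log2(TPM + 0.1), a lowess trend on gene length (span 0.3) removed, a replicate block, unadjusted p, glmTreat, and each library left out. The 4 genes and the background lists (other peroxidases, catalases, redox genes with PF03098, thioredoxins and glutaredoxins of the annotation) were chosen with earlier results of these data known. Named were all tested peroxidases and catalases, called genes of the other lists, the 3 nearest profiles per gene, and called genes within 3 gene numbers. None of the gene numbers was among the 13840 genes of the RefSeq list of another strain, and positions are therefore left out.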

Additional observations from a re-analysis of the deposited data

How the results depend on the processing

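With glmTreat the number of genes called was 1653, against 2591, and that of the listed background genes 5, against 8. The other 15 alternatives left both counts within 1.5 times, and the replicate block called 2587 genes. Same-numbered libraries did not deviate together (correlations of 0.0351, 0.00881 and -0.101 for numbers 1, 2 and 3). With 3 libraries per group, this cannot show whether a BIN culture came from the T0 culture of its number. The values of the 4 genes moved by more than the spread between replicates as follows. With library size alone g4415 was at -0.55 and g11846 at -0.0207. On log2(TPM + 1) values g4415 was at -0.25, g11846 at 0.27, g7552 at -1.02 and g7863 at -1.15, and on log2(TPM + 0.1) values they were at -0.25, 0.28, -1.03 and -1.16. Corrected for gene length, g11846 was at -0.0554 and g7863 at -2.18. Signs reversed for g9906 (0.191 on log2(TPM + 1), 0.192 on log2(TPM + 0.1), and -0.48 to 0.0076 with each library left out, the last without T0 replicate 1), for g3933 (0.14 on log2(TPM + 1) and 0.22 on log2(TPM + 0.1)) and for g9113 (-0.34 with the length trend removed). On both TPM scales g9906 and g3933 lay below the median of all genes, which was 0.40 and 0.43. The cause of the reversals was not tested. Of 28 background genes named, 12 kept their sign and call in all 16 alternatives. Depth was lowest for g3933 among the peroxidases, with 15 to 36 counts per library.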

Other observations

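Whether genes of close number lie near each other in the genome was not checked. Within 3 numbers of the 4 genes, 20 genes were in the tables, and 5 were called higher and 4 lower (edgeR's quasi-likelihood test), beside 11.3% and 14.5% of all genes. No test of this count was made. Of the 6 around g4415, both next to it were lower, g4414 at -1.21 on the log2 scale (standard error, SE, 0.08) and g4416 at -1.31 (SE 0.13). Around g7552, g7549 was higher at 1.25 (SE 0.08), g7550 at 1.51 (SE 0.11) and g7553 at 4.15 (SE 0.16), and the GH43_24 gene g7555 lower at -1.05 (SE 0.26). The TPM of g7553, the next number after g7552, were 365 in BIN and 15.2 in T0 on average. Near g7863, g7866 was lower at -1.74 (SE 0.20), with 959 TPM in BIN and 2332 in T0. After g11846, g11847 and g11849 were just past the threshold, at 1.00 (SE 0.32) and 1.02 (SE 0.14), and g11847 kept its call in 9 and g11849 in 11 of 16 alternatives. The call was kept in 14 of 16 for g4414 and g4416, 15 for g7549, 10 for g7555, and all 16 for g7550, g7553 and g7866.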
